A study of Mus musculus with 12 samples.

Results

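Polycomb repressive complex subunits were read across 4 groups of mouse cells. The genes taken were Ezh1, Ezh2, Eed, Suz12, Jarid2, Mtf2, Phc1, Cbx2, Cbx7 and Bmi1, each through every probe that the platform annotation gives to it. Of these 10 genes, 9 had a named probe, out of 10997 genes named in that annotation. They had 15 probes together, and Jarid2 had none.

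Each group held 3 arrays. Group mNanog iPS was induced pluripotent stem (iPS) cells made with mouse Nanog and group hNanog iPS was iPS cells made with human Nanog. Group ES was embryonic stem cells, and group NS was Nanog-null neural stem cells. Every sample was labelled E14Tg2A, a cell background of strain 129, and iPS and ES cells were grown in N2B27 medium with LIF, the GSK3 inhibitor CHIR99021 at 3 µM and the MEK inhibitor PD0325901 at 1 µM. The labels give neither the medium of the NS cells nor the number of iPS clones, so the form of Nanog and the clone cannot be told apart. The labels do not say whether the 3 arrays of a group came from separate cultures, so p-values measure the spread between these samples, which may be technical.

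Polycomb proteins keep developmental genes silent. Polycomb repressive complex 2 (PRC2) places methyl groups on lysine 27 of histone H3 (H3K27) through Ezh1 or Ezh2, with Eed and Suz12 as its other core subunits and proteins such as Mtf2 and Jarid2 that help it find chromatin. Polycomb repressive complex 1 (PRC1) marks histone H2A with ubiquitin or compacts chromatin. In its canonical form a Cbx protein reads the H3K27 mark, a Phc protein lets complexes cluster and a Pcgf protein such as Bmi1 pairs with the ubiquitin ligase. In mouse ES cells Cbx7 is known as the main reader, while Cbx2 and Bmi1 are linked to differentiated and neural cells.

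The arrays gave mean bead signals of 317.5 to 561.9 and detected 13654 to 16776 probes, where detection is a p-value under 0.01 against negative controls. By mean signal 6 arrays were brighter, at 470.3 to 561.9, and the other 6 dimmer, at 317.5 to 332.2, with both kinds in every group. In mNanog iPS only replicate 3 was brighter, and in ES only replicate 1. In hNanog iPS only replicate 3 was dimmer, and in NS only replicate 2. Both Nanog probes were detected on all 9 iPS and ES arrays and on none of the 3 NS arrays. Their levels differed: probe ILMN_1245732 read 12.17 to 12.54 in mNanog iPS, 6.87 to 7.22 in hNanog iPS and 11.51 to 11.68 in ES. Probe ILMN_2706623 read 11.21 to 11.67, 10.98 to 11.07 and 12.83 to 13.15 in the same order. All 6 markers of pluripotent cells were detected in the iPS and ES groups. All 7 neural stem markers were detected in NS, where the 6 pluripotency markers summed to 216 to 249 intensity units against 69979 to 78464 elsewhere. Of those 6, Esrrb and Dppa5a were still detected on all 3 NS arrays. Of the 7 neural stem markers 2 were detected on any array in mNanog iPS, 1 in hNanog iPS and 3 in ES. Their sum was at most 313 there, against 65798 to 70515 in NS. The neuron marker Map2 read 12.24 to 12.3 in NS. The endoderm marker Dab2 was detected in NS and both iPS groups but not in ES. These are bulk samples, in which fewer cells of a type and less RNA per cell cannot be told apart. Values below are normalised log2 intensities in replicate order, which compare a probe between arrays but not one probe with another. Differences are from a limma fit over 18185 tested probes, with their standard error (SE) and a Benjamini-Hochberg adjusted p, and the call threshold is 0.05.

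Against NS cells, most of the set stood higher in all 3 pluripotent groups and Bmi1 stood lower. The 14 member probes tested belong to 8 genes, with 3 probes each for Mtf2 and Phc1 and 2 each for Ezh2 and Eed. Counts and medians over these probes thus count those genes repeatedly. Of the 14 probes, 10 were higher and 2 lower in mNanog iPS than in NS, where 38.9% of all tested probes were higher and 35.9% lower. For hNanog iPS the counts were 10 higher and 2 lower, beside 40.6% and 34.7% of all probes. In ES cells 12 were higher and 1 lower, beside 40.6% and 34.6% of all probes. The median member difference was 1.78, 1.54 and 1.7 log2 units for the mNanog iPS, hNanog iPS and ES groups, while the median over all tested probes was 0.08, 0.12 and 0.11. The probe for Cbx7 and 1 of 3 probes for Phc1 passed the detection filter only through the pluripotent groups, so they had to differ. The 3 comparisons share their NS arrays.

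**Figure D1:**
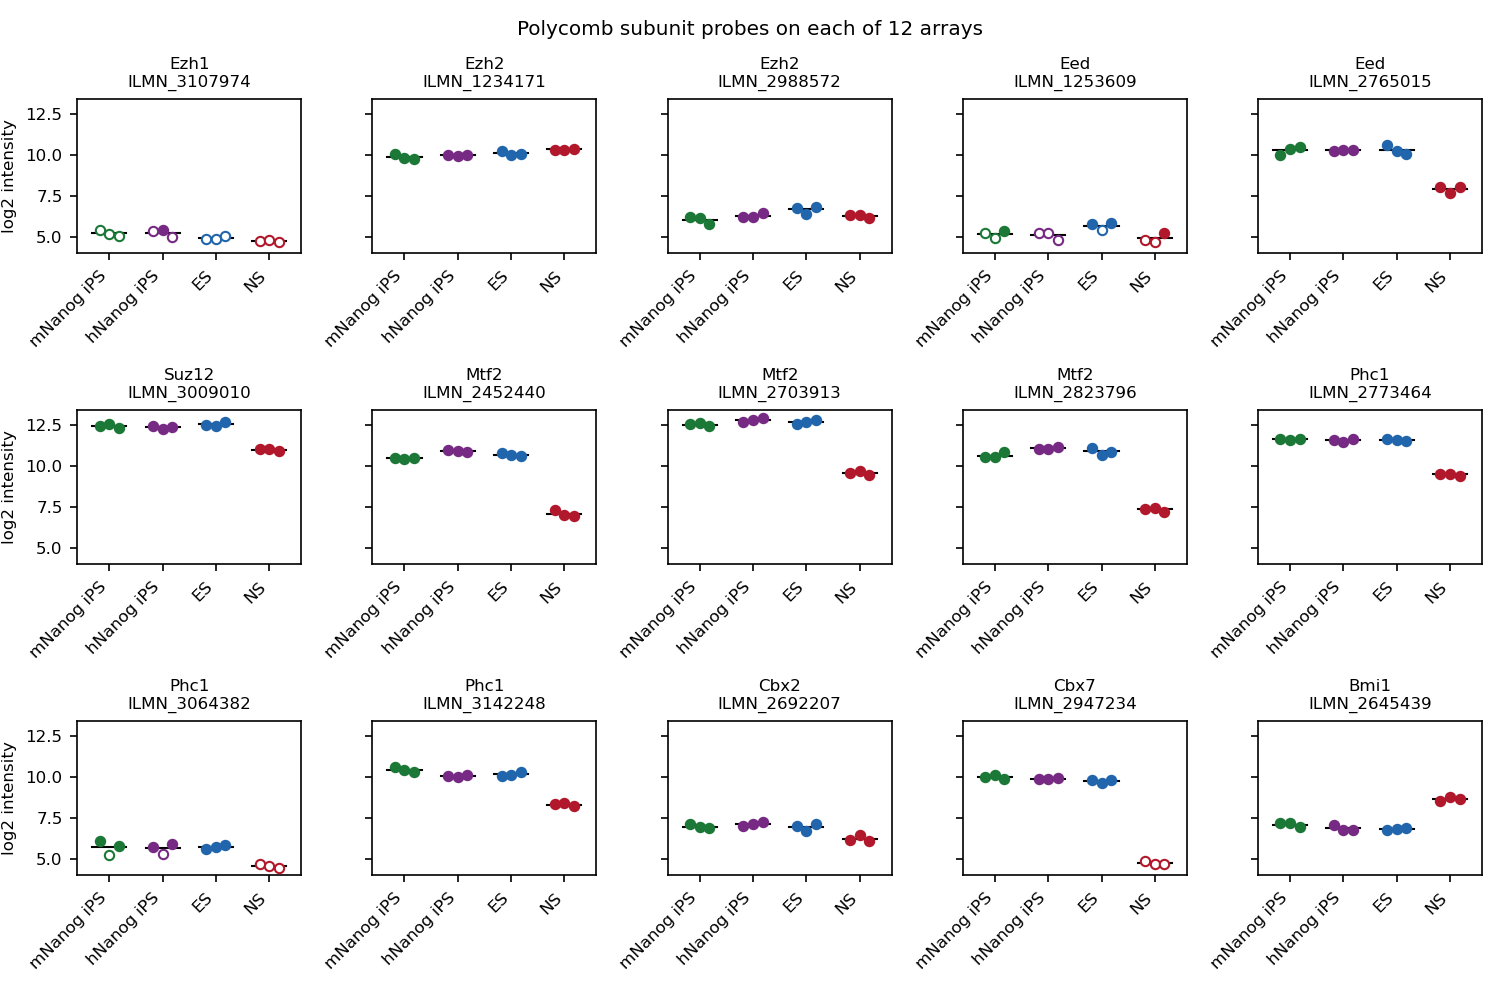
Normalised log2 intensity (vertical axis) of each of the 15 member probes on each of the 12 arrays, grouped by cell type. Filled points are arrays where the probe was detected, open points are arrays where it was not, and the black line is the group mean of 3 arrays. Cbx7 sits between 9.61 and 10.08 in iPS and ES cells and is open in NS cells, Bmi1 is highest in NS cells, and Ezh1 has 1 filled point.

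Ezh1 and Ezh2 are the alternative methyltransferases of PRC2. The Ezh1 probe ILMN_3107974 gave 5.44, 5.17 and 5.09 on the mNanog iPS arrays, 5.35, 5.43 and 4.98 on hNanog iPS arrays, 4.91, 4.89 and 5.07 on ES arrays and 4.76, 4.81 and 4.71 on NS arrays. Only replicate 2 of hNanog iPS was above background, so the probe was not tested and its values have no order that can be read as a level.

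Ezh2 has 2 probes, whose differences from NS had opposite signs in ES cells and the same sign in both iPS groups. Probe ILMN_1234171 gave 10.06, 9.79 and 9.73 on the mNanog iPS arrays, 10.01, 9.9 and 9.97 on hNanog iPS arrays, 10.23, 9.99 and 10.07 on ES arrays and 10.31, 10.31 and 10.35 on NS arrays. Every NS array was above every other array. The level fell by 0.47 ± 0.10 (SE) log2 units from NS in mNanog iPS (adjusted p = 0.0011) and by 0.37 ± 0.10 in hNanog iPS (adjusted p = 0.0053). In ES cells the difference was -0.23 ± 0.10 and missed the threshold (adjusted p = 0.056), which it passed without replicate 1 or 3 of mNanog iPS or replicate 1 of ES (0.0285, 0.0499 and 0.0302). Among the dimmer arrays alone neither iPS difference passed (adjusted p = 0.0882 and 0.17). The hNanog iPS difference also missed the threshold with median scaling (adjusted p = 0.264).

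Probe ILMN_2988572 of Ezh2 gave 6.19, 6.18 and 5.81 on the mNanog iPS arrays, 6.2, 6.21 and 6.45 on hNanog iPS arrays, 6.75, 6.43 and 6.85 on ES arrays and 6.36, 6.35 and 6.18 on NS arrays. Here ES cells had the highest mean, though the lowest ES array lay below the highest hNanog iPS array. ES exceeded NS by 0.38 ± 0.14 (adjusted p = 0.024), while mNanog iPS and hNanog iPS differed from NS by -0.24 ± 0.14 (adjusted p = 0.14) and -0.01 ± 0.14 (adjusted p = 0.94). The ES call was lost without ES replicate 1 or 3 or NS replicate 3 (adjusted p = 0.0689, 0.0969 and 0.0829) and turned to -0.10 with median scaling. For Ezh2 the probes therefore set no common direction for ES cells.

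Promoter stretches are shown for members that differed from NS in opposite directions and for those that hold the searched motif. The sequences come from RefSeq on build GRCm38.p6, from a table of 250 bases before to 50 after each annotated start, which held 11 promoters for 9 of the 10 members and none for Cbx2. They were searched on both strands for 4 spellings of the E2F site, namely TTGGCGC, then TTCGCGC, then TTCCCGC and lastly TTGCCGC, since E2F factors are known to drive Ezh2, Eed and Suz12 in proliferating cells. At least 1 spelling occurs in 9.57% of 32851 promoters. Among the members only Ezh2 and Suz12 held one in this window, and capitals mark it. In Ezh2 TTGGCGC, held by 2.45% of all promoters, begins 4 bases past the start, at chr6:47595011-47595130 on the minus strand.
Ezh2 promoter: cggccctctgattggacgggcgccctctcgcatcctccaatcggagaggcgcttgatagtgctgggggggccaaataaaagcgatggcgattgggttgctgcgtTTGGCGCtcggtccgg
In Suz12 TTCCCGC, held by 4.6% of all promoters, begins 218 bases before the start, at chr11:79992856-79992955 on the plus strand.
Suz12 promoter: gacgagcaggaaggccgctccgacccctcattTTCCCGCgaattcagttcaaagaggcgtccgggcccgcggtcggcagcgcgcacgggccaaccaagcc
The Cbx7 stretch, from the member with the widest gap to NS, lies at chr15:79932647-79932746 on the minus strand.
Cbx7 promoter: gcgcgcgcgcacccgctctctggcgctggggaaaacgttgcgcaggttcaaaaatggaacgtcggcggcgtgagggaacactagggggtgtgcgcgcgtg
The Bmi1 stretch, from a member that fell, lies at chr2:18676918-18677017 on the plus strand.
Bmi1 promoter: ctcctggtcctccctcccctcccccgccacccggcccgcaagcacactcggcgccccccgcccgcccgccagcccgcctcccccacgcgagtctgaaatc

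Mtf2 recognises unmethylated CpG-rich DNA, so CpG content was also counted. The ratio of observed to expected CpG was 0.53 to 1.09 in 10 of the 11 member promoters and 0.13 in the other, a second Mtf2 start. The median over all promoters was 0.38, and 25% of them reached 0.75. Cbx7 stood at 0.99 and Bmi1, which moved the opposite way, at 0.71. These letters are a description of the windows and not of binding.

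Eed, the core subunit that binds the methylated histone tail and stimulates the enzyme, was higher in every pluripotent group by probe ILMN_2765015. That probe gave 10, 10.38 and 10.5 on the mNanog iPS arrays, 10.26, 10.28 and 10.3 on hNanog iPS arrays, 10.62, 10.21 and 10.07 on ES arrays and 8.03, 7.68 and 8.06 on NS arrays. No iPS or ES array came near the NS arrays. Eed rose by 2.37 ± 0.16, 2.36 ± 0.16 and 2.38 ± 0.16 log2 units, or 5.17-, 5.13- and 5.20-fold, in mNanog iPS, hNanog iPS and ES (adjusted p = 3.8e-08, 4.0e-08 and 3.6e-08). The other Eed probe, ILMN_1253609, was detected on 4 of 12 arrays and read 4.72 to 5.86. By that probe ES exceeded NS by 0.77 ± 0.17 (adjusted p = 0.0015, and 0.135 with median scaling), while mNanog iPS and hNanog iPS differed from NS by 0.25 ± 0.17 and 0.17 ± 0.17 (adjusted p = 0.21 and 0.40).

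Suz12, the scaffold that holds PRC2 together, moved the same way with a smaller step. Probe ILMN_3009010 gave 12.44, 12.52 and 12.29 on the mNanog iPS arrays, 12.43, 12.23 and 12.34 on hNanog iPS arrays, 12.5, 12.45 and 12.68 on ES arrays and 11.05, 11.04 and 10.88 on NS arrays. All 9 pluripotent arrays lay above all 3 NS arrays. Suz12 rose by 1.43 ± 0.10, 1.35 ± 0.10 and 1.56 ± 0.10, which is 2.70-, 2.54- and 2.94-fold (adjusted p = 4.3e-08, 7.8e-08 and 1.9e-08). Beside these differences, 7 proliferation genes summed to 13740 to 14449 intensity units in mNanog iPS, 16206 to 16472 in hNanog iPS and 16657 to 17414 in ES against 10064 to 10546 in NS. Not all of them rose: Mcm2, Mcm3, Mcm5 and E2f1 did in each comparison, Pcna in hNanog iPS, while Top2a differed by 0.00, 0.14 and -0.01 without a call and Cdk1 fell by 0.24 in mNanog iPS and differed by -0.13 and -0.19 in the others. Their part in the Eed and Suz12 differences was not tested.

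Mtf2 showed a wide and repeatable gap in its 3 probes. Probe ILMN_2452440 gave 10.46, 10.42 and 10.48 on the mNanog iPS arrays, 10.97, 10.93 and 10.84 on hNanog iPS arrays, 10.8, 10.64 and 10.58 on ES arrays and 7.32, 7.01 and 6.93 on NS arrays. No pluripotent array came near the NS arrays, and the 3 pluripotent groups differed little beside that gap. Its differences of 3.37 ± 0.11, 3.83 ± 0.11 and 3.59 ± 0.11 are 10.3-, 14.2- and 12-fold (adjusted p = 2.1e-11, 6.6e-12 and 1.1e-11). Probe ILMN_2703913 gave 2.96, 3.23 and 3.13 and probe ILMN_2823796 gave 3.27, 3.73 and 3.53 in the same order (adjusted p at most 2.5e-11 and 1.2e-10). All 3 probes had the same direction in each comparison. No level can be given for Jarid2, the other accessory subunit in the set.

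Phc1, the polyhomeotic subunit whose SAM domain links PRC1 complexes, rose by all 3 of its probes. Probe ILMN_2773464 gave 11.65, 11.6 and 11.66 on the mNanog iPS arrays, 11.57, 11.45 and 11.65 on hNanog iPS arrays, 11.61, 11.58 and 11.51 on ES arrays and 9.52, 9.52 and 9.4 on NS arrays. The 3 pluripotent groups overlapped one another and not NS. The increases were 2.16 ± 0.08, 2.07 ± 0.08 and 2.08 ± 0.08, or 4.46-, 4.21- and 4.24-fold (adjusted p = 1.1e-10, 1.6e-10 and 1.5e-10). Probe ILMN_3142248 gave 2.13, 1.73 and 1.84. Probe ILMN_3064382 was below background on all NS arrays and on 1 array of each iPS group, so its increases are bounds of at least 1.40-, 1.36- and 1.41-fold.

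Cbx7 gave the widest gap of the set. Probe ILMN_2947234 gave 10.01, 10.08 and 9.86 on the mNanog iPS arrays, 9.84, 9.88 and 9.94 on hNanog iPS arrays, 9.81, 9.61 and 9.79 on ES arrays and 4.9, 4.67 and 4.71 on NS arrays, where it was not above background on any array. A bound on the change is the group's mean over the lowest level detected on the NS arrays. By that bound Cbx7 exceeded NS at least 27.1-fold in mNanog iPS, at least 25.3-fold in hNanog iPS and at least 22.8-fold in ES. The fitted differences, which depend on the NS background, were 5.23 ± 0.10, 5.13 ± 0.10 and 4.98 ± 0.10 (adjusted p = 1.6e-13, 2.0e-13 and 2.4e-13). The probe passed the filter only through the pluripotent groups, so these p-values add no support.

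Cbx2, a paralog that compacts chromatin, changed far less. Probe ILMN_2692207 gave 7.13, 6.92 and 6.87 on the mNanog iPS arrays, 6.99, 7.14 and 7.24 on hNanog iPS arrays, 6.98, 6.72 and 7.14 on ES arrays and 6.14, 6.47 and 6.07 on NS arrays. Every NS array was below every other array. The increases of 0.75 ± 0.14, 0.90 ± 0.14 and 0.72 ± 0.14 are 1.68-, 1.86- and 1.65-fold (adjusted p = 3.1e-04, 6.4e-05 and 3.9e-04). With arrays scaled to a common median they were 0.25, 0.65 and 0.26 and none passed (adjusted p = 0.521, 0.076 and 0.513). Among the dimmer arrays alone the mNanog iPS and ES calls were lost (adjusted p = 0.0705 and 0.113).

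Bmi1, the Pcgf subunit known for self-renewal of neural stem cells, was the only member called lower in all 3 pluripotent groups. Probe ILMN_2645439 gave 7.18, 7.17 and 6.93 on the mNanog iPS arrays, 7.05, 6.79 and 6.78 on hNanog iPS arrays, 6.75, 6.8 and 6.91 on ES arrays and 8.53, 8.79 and 8.67 on NS arrays. The NS arrays were all above the rest. Bmi1 fell by 1.57 ± 0.11, 1.79 ± 0.11 and 1.85 ± 0.11, which is 2.97-, 3.47- and 3.61-fold (adjusted p = 4.5e-08, 1.2e-08 and 8.9e-09).

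Differences between genes within an array were also compared. The difference Phc1 minus Bmi1 was larger than in NS by 3.73, 3.87 and 3.93 log2 units in mNanog iPS, hNanog iPS and ES. No group overlapped NS, and each exact two-sided permutation test gave p = 0.1, the smallest that 3 arrays against 3 allow. This result follows from the Phc1 rise and the Bmi1 fall given above and adds no separate support. The difference Cbx7 minus Cbx2 is not set against NS, where Cbx7 was at background. In mNanog iPS and hNanog iPS it differed from ES by 0.23 and -0.03 (exact permutation p = 0.2 and 0.9). Ezh1 minus Ezh2 was not computed because Ezh1 was at background.

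Calls against NS were kept by 10 of the 14 member probes under every alternative run in each of the 3 comparisons. They are Eed probe ILMN_2765015 and the probes of Suz12, Mtf2, Phc1, Cbx7 and Bmi1. For Cbx7 and Phc1 probe ILMN_3064382 the detection filter had set the direction against NS, so their kept calls add no support. Some groups have a lone array among the brighter or the dimmer arrays, so only differences are given here for these subsets. In mNanog iPS, for example, Cbx7 differed from NS by 5.06 among brighter and 5.37 among dimmer arrays, and Bmi1 by -1.67 and -1.62.

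**Figure D2:**
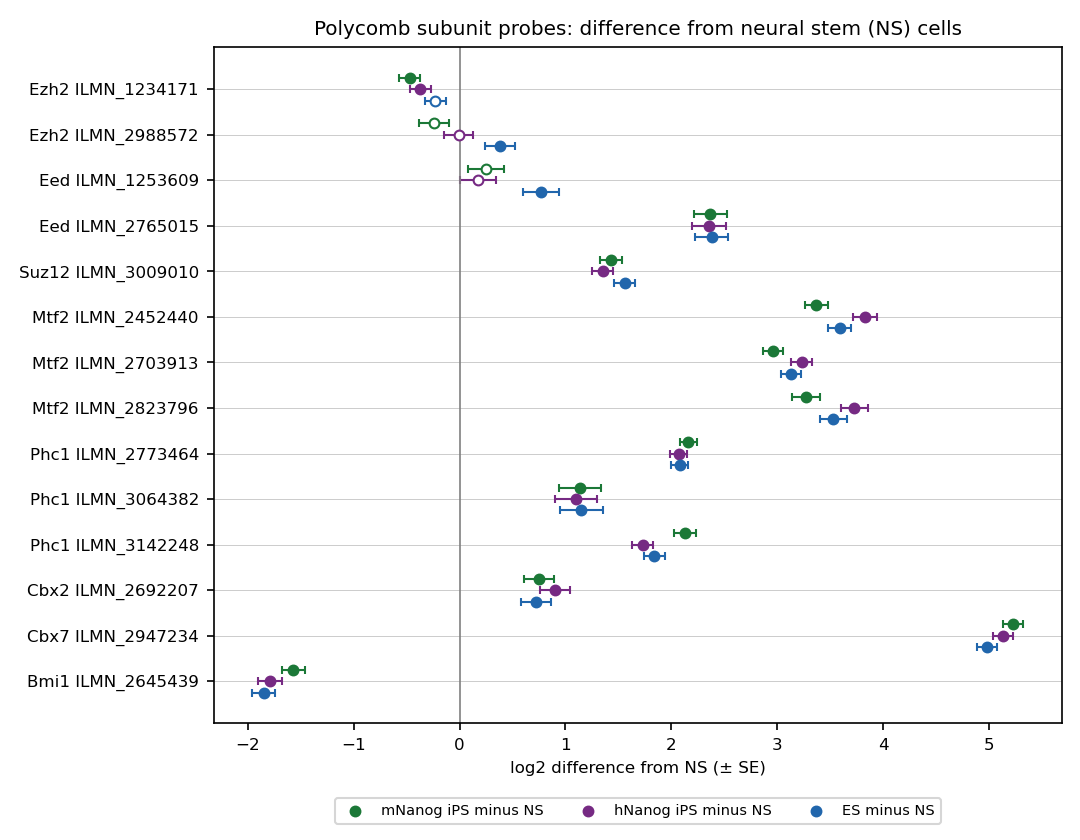
Log2 difference from NS cells (horizontal axis, points ± SE of the fit to 12 arrays) of each of the 14 tested member probes in mNanog iPS, hNanog iPS and ES cells. Filled points passed an adjusted p of 0.05 and open points did not. Cbx7 lies furthest right at about 5, Mtf2 near 3, Phc1 and Eed near 2, Bmi1 left of 0, and the Ezh2 probes close to 0.

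Among the pluripotent groups differences were small in the set and over all tested probes alike. The median absolute difference over all tested probes was 0.23 log2 units in mNanog iPS against ES and 0.21 in hNanog iPS against ES. Between the iPS groups it was 0.16. In mNanog iPS against ES 1 member probe was higher and 2 lower of 14, beside 15.9% and 16.9% of all tested probes. In hNanog iPS against ES 0 were higher and 1 was lower by limma, beside 13.7% and 12.4%. An unadjusted p under 0.05 was reached by 1 higher and 2 lower, with no share of all probes to set beside them. In hNanog iPS against mNanog iPS 2 were higher and 1 lower, beside 6.42% and 7.30%. The member differences ran from -0.61 to 0.29, from -0.60 to 0.24 and from -0.40 to 0.46 log2 units, with medians of -0.07, -0.01 and -0.02. These medians are signed, so differences of opposite direction offset each other in them. For Eed by probe ILMN_2765015, iPS and ES cells differed by at most 0.02 ± 0.16, and for Suz12 by -0.12 ± 0.10 in mNanog iPS and -0.21 ± 0.10 in hNanog iPS (adjusted p = 0.38 and 0.15). Cbx7 was 0.25 ± 0.10 above ES in mNanog iPS and 0.15 ± 0.10 in hNanog iPS, without passing (adjusted p = 0.068 and 0.30), and the mNanog iPS difference passed without replicate 3 of that group (adjusted p = 0.0455).

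Both calls of mNanog iPS below ES came from 1 of 2 probes of their gene. Ezh2 probe ILMN_2988572 fell by 0.61 ± 0.14 (adjusted p = 0.0043), with no overlap between the groups, and Ezh2 probe ILMN_1234171 differed by -0.24 ± 0.10 (adjusted p = 0.093, and 0.0199 without mNanog iPS replicate 1). In hNanog iPS these probes differed from ES by -0.39 ± 0.14 and -0.14 ± 0.10 (adjusted p = 0.053 and 0.37). The first of these passed without mNanog iPS replicate 3, hNanog iPS replicate 3 or ES replicate 2 (adjusted p = 0.0331, 0.0417 and 0.0211). The Eed probe ILMN_1253609 fell by 0.52 ± 0.17 in mNanog iPS and by 0.60 ± 0.17 in hNanog iPS (adjusted p = 0.038 and 0.024). It was undetected on all hNanog iPS arrays, so ES was at least 1.14-fold higher. Its mNanog iPS call was lost without replicate 1 or 2 of that group, replicate 1 or 3 of ES or replicate 1 of NS (adjusted p up to 0.143). Its hNanog iPS call was lost without hNanog iPS replicate 3 or ES replicate 1 or 3 (adjusted p up to 0.0913). Eed probe ILMN_2765015 differed by -0.01 and -0.02 (each ± 0.16).

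Phc1 probe ILMN_3142248 was 0.29 ± 0.10 higher in mNanog iPS than in ES (adjusted p = 0.046) and fell by 0.40 ± 0.10 in hNanog iPS against mNanog iPS (adjusted p = 0.021). It gave 10.59, 10.4 and 10.32 on the mNanog iPS arrays, 10.04, 9.98 and 10.1 on hNanog iPS arrays, and 10.06, 10.08 and 10.31 on ES arrays. The iPS groups did not overlap, and neither did mNanog iPS and ES. Phc1 probe ILMN_2773464 gave 0.07 ± 0.08 and -0.08 ± 0.08 in these comparisons (adjusted p = 0.54 and 0.57). The call against ES was lost without replicate 1 or 2 of mNanog iPS, any replicate of hNanog iPS, replicate 1 or 2 of ES or replicate 1 of NS (adjusted p up to 0.164). The call between the iPS groups was lost without replicate 1 or 2 of either group (adjusted p up to 0.0844).

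Mtf2 was higher in hNanog iPS than in mNanog iPS by 0.46 ± 0.11 with probe ILMN_2452440 and by 0.46 ± 0.13 with ILMN_2823796 (adjusted p = 0.013 and 0.029). The third probe, ILMN_2703913, gave 0.27 ± 0.10 (adjusted p = 0.091), and passed with array brightness as a block (0.319, adjusted p = 0.0129). The iPS groups did not overlap in any of the 3 probes, and ES lay between them in their means. The call of ILMN_2452440 was lost without hNanog iPS replicate 1 (adjusted p = 0.0543), and that of ILMN_2823796 without replicate 1 or 2 of mNanog iPS or any replicate of hNanog iPS (adjusted p up to 0.109). In their deviations from the group means, arrays of like brightness correlated at 0.085 to 0.578 and arrays of different brightness at -0.534 to -0.064. The brightness block also made calls of Bmi1 in mNanog iPS against ES (0.28, adjusted p = 0.0483) and of Eed ILMN_1253609 in mNanog iPS against NS (0.347, adjusted p = 0.0334). None of the 7 member calls among pluripotent groups held under every alternative. Among the brighter or the dimmer arrays alone some groups had 1 array, so no counts of member calls are read from those subsets.

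**Figure D3:**
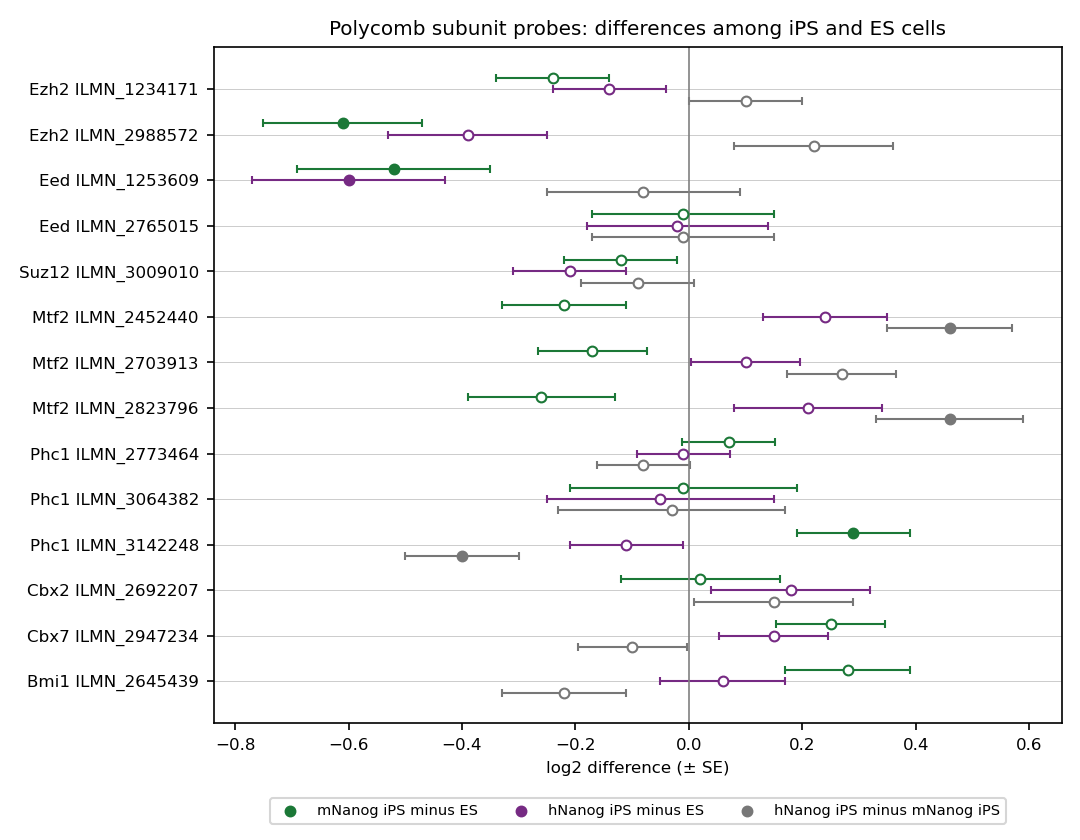
Log2 difference (horizontal axis, points ± SE) of each of the 14 tested member probes for mNanog iPS minus ES, hNanog iPS minus ES and hNanog iPS minus mNanog iPS. Filled points passed an adjusted p of 0.05. All differences lie between -0.61 and 0.46, and the 7 filled points belong to single probes of Ezh2, Eed and Phc1 and to 2 probes of Mtf2.

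Other polycomb genes moved in both directions against NS. Of 36 listed genes 32 were tested, and Bcorl1 was not above background on enough arrays. Of the 32, 17 were higher and 11 lower in mNanog iPS than in NS, 15 and 9 in hNanog iPS, and 15 and 11 in ES. In each comparison 1 gene was undetected in NS and passed the filter only through the pluripotent groups. A further 2, 3 and 2 were detected in NS and not in the other group, so the filter set part of these counts. The calls in both directions were 28, 24 and 26 of 32, where 74.8%, 75.3% and 75.2% of all tested probes were called, so the counts stand near that background. Their median differences were 0.62, 0.18 and 0.31. Of 5 PRC2 partners 4 were higher and 1 lower in each comparison. Of 20 PRC1 genes 9, 8 and 8 were higher and 8, 7 and 9 lower.

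Among PRC2 partners Epop, an accessory protein of the Mtf2-containing form, rose most, by 4.55 ± 0.09, 4.90 ± 0.09 and 5.14 ± 0.09 log2 units in mNanog iPS, hNanog iPS and ES. It read 11.49 to 12.22 on the pluripotent arrays and 6.98 to 7.05 in NS. Aebp2, a partner of the Jarid2-containing form, rose by 0.91, 0.69 and 0.60, though no call remained with median scaling (adjusted p = 0.215, 0.13 and 0.501). Phf19, a paralog of Mtf2, went the other way. It was detected on the 3 NS arrays only, so it passed the filter through NS alone and its direction was set. It was at least 1.83-, 1.97- and 1.87-fold lower in mNanog iPS, hNanog iPS and ES.

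The other Pcgf subunits of PRC1 did not share a direction. Pcgf3 was lower by called differences of -0.28 and -0.36 in mNanog iPS and ES and differed by -0.16 in hNanog iPS (adjusted p = 0.11). Pcgf5 rose by 0.70 in mNanog iPS and differed by 0.17 and 0.01 in hNanog iPS and ES (adjusted p = 0.19 and 0.92). Pcgf1 rose by 1.56, 1.29 and 1.20. Pcgf6, a subunit of a variant complex that silences germline genes, rose by 2.19, 2.21 and 2.34 (each ± 0.09). Pcgf2, the closest paralog of Bmi1, was undetected in NS, passed the filter only through the pluripotent groups and was at least 2.38-, 2.98- and 2.33-fold higher. It read 6.22 to 6.86 on the pluripotent arrays, while Bmi1 was lower on all of them than in NS. Rybp, a subunit of variant PRC1, rose by 2.08, 2.22 and 2.14, and its paralog Yaf2 fell by 2.74, 2.75 and 3.23. Phc2, a paralog of Phc1, fell by 2.02, 2.28 and 2.16. Scml4, a relative of the Scm proteins that bind Phc, was detected in NS only and was at least 5.66-, 6.08- and 5.78-fold lower. Scml4 too passed the filter through NS alone, so its direction was set. The paralogs Rybp and Yaf2, and Phc1 and Phc2, thus moved in opposite directions, each past the threshold in all 3 comparisons.

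Of the ubiquitin ligases, Ring1 fell by 1.31, 1.51 and 1.06. Rnf2 was 0.73 ± 0.23 and 0.61 ± 0.23 higher in mNanog iPS and hNanog iPS (adjusted p = 0.013 and 0.031) and 0.42 ± 0.23 in ES (adjusted p = 0.12), from a probe detected on 7 of 12 arrays. Its mNanog iPS call was lost without replicate 3 of that group or NS replicate 2 (adjusted p = 0.0603 and 0.0562). Its hNanog iPS call was lost without replicate 1 or 2 of that group or NS replicate 2 (adjusted p up to 0.12), and the ES difference passed without ES replicate 2 (adjusted p = 0.0376). Phc3 fell by 0.51, 0.57 and 1.12. The mNanog iPS call of Phc3 was lost without replicate 1 or 2 of that group or NS replicate 1 (adjusted p up to 0.107), and the hNanog iPS call without NS replicate 1 (adjusted p = 0.058). Cbx6 differed by 0.03, -0.07 and -0.03 (each ± 0.14) and passed in no comparison.

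Kdm2b, which brings a variant PRC1 to CpG islands, rose by 1.07, 1.24 and 0.41, and with median scaling its ES value turned to -0.04 and its mNanog iPS call was lost (adjusted p = 0.12). Its ES call was also lost with cyclic loess and among brighter arrays alone (adjusted p = 0.269 and 0.125). Of the H3K27 demethylases, which remove the PRC2 mark, Kdm6a rose by 1.12, 1.29 and 1.39, the first of which missed the threshold with median scaling (adjusted p = 0.0894), and Kdm6b fell by 0.98, 0.83 and 0.51.

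**Figure D4:**
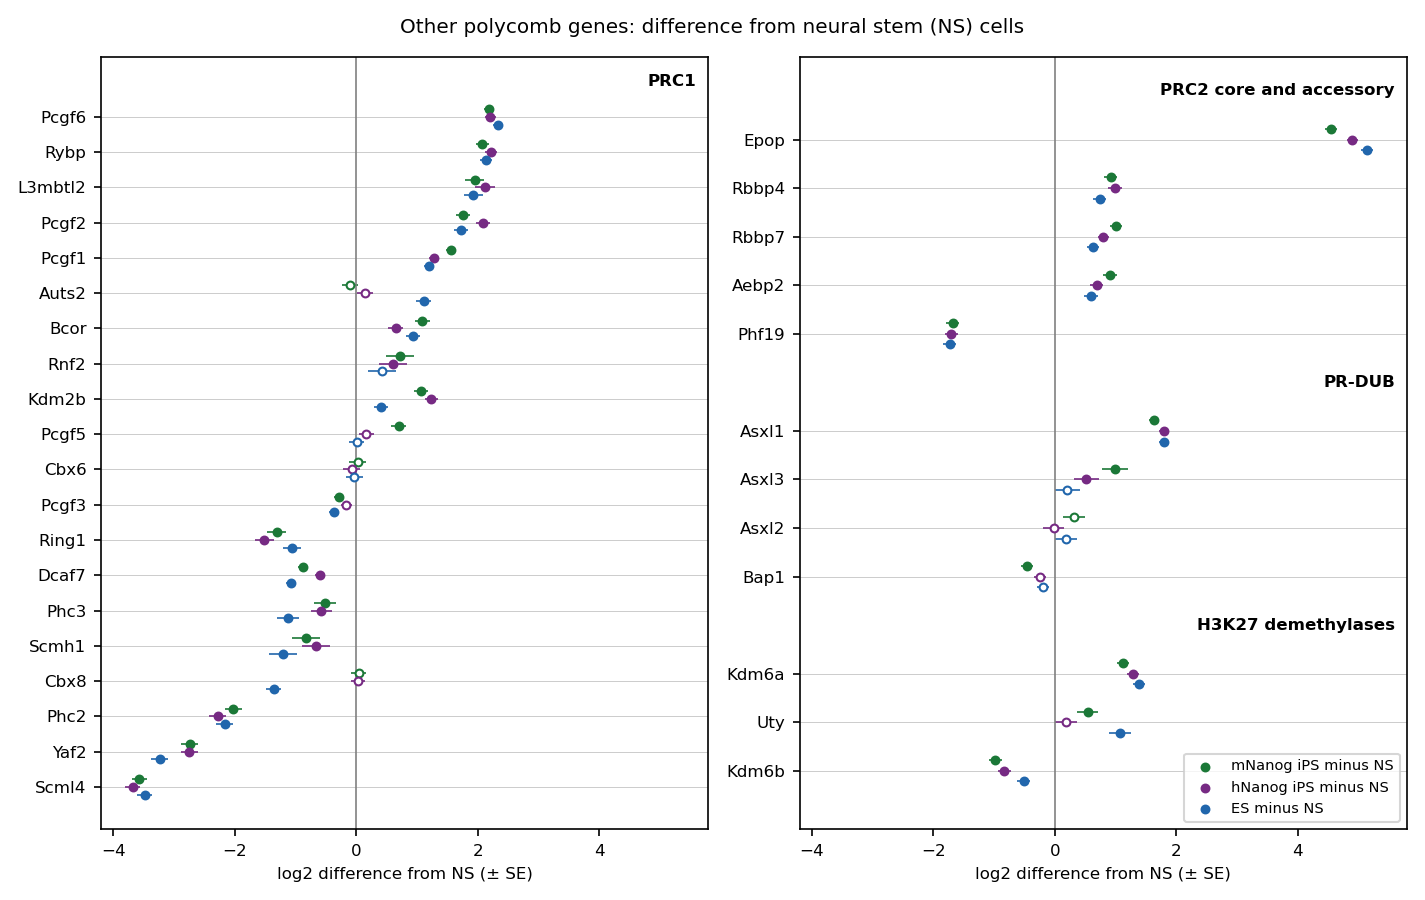
Log2 difference from NS cells (horizontal axis, points ± SE) of 32 other polycomb genes in mNanog iPS, hNanog iPS and ES cells, with PRC1 genes on the left and PRC2 partners, the H2A deubiquitinase complex (PR-DUB) and H3K27 demethylases on the right. Filled points passed an adjusted p of 0.05. Epop lies near 5, while Scml4, Yaf2 and Phc2 lie furthest left.

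In mNanog iPS against ES 9 of the other polycomb genes were higher and 4 lower, and in hNanog iPS 5 and 4. These 13 and 9 calls of 32 stand beside 32.8% and 26.1% of all tested probes, a background they lie near. Cbx8, a Cbx paralog, read 7.03 to 7.15 in mNanog iPS, 6.99 to 7.19 in hNanog iPS and 7.05 to 7.07 in NS, against 5.45 to 5.96 in ES, where 1 of 3 arrays detected it. ES was the low group, and the other 3 overlapped. Cbx8 exceeded ES by 1.41 ± 0.12 and 1.39 ± 0.12 (adjusted p = 2.0e-06 and 3.4e-06), under every alternative run in both comparisons. Auts2, a PRC1 partner known for its role in neurons, was highest in ES and fell by 1.20 ± 0.13 and 0.97 ± 0.13 in the iPS groups (adjusted p = 2.3e-05 and 2.0e-04). The second of these was lost with median scaling (adjusted p = 0.195).

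Kdm2b exceeded ES by 0.67 ± 0.11 and 0.83 ± 0.11 in mNanog iPS and hNanog iPS, and the mNanog iPS call was lost with median scaling (adjusted p = 0.401). Further calls were Pcgf5 at 0.69 ± 0.12, Asxl3, a PR-DUB subunit, at 0.79 ± 0.21 and Epop, which fell by 0.58 ± 0.09, in mNanog iPS, and Uty, a Y-linked paralog of Kdm6a, which fell by 0.88 ± 0.18 in hNanog iPS. With median scaling all of these were lost (adjusted p = 0.472, 0.365, 0.317 and 0.279). Kdm6b fell by 0.47 ± 0.11 in mNanog iPS (adjusted p = 0.0055). It read 8.02 to 8.06 there and 8 to 8.35 in hNanog iPS, so both iPS groups lay below the 8.49 to 8.52 of ES. Between the iPS groups 2 genes of 32 were higher and 3 lower in hNanog iPS. Of all tested probes 6.42% were higher and 7.30% lower, a background these counts lie near. Pcgf5 fell by 0.53 ± 0.12 (adjusted p = 0.0091) and Bcor, a subunit of the Kdm2b complex, by 0.45 ± 0.12 (adjusted p = 0.033), while Epop and Dcaf7 were 0.35 ± 0.09 and 0.29 ± 0.08 higher (adjusted p = 0.028 and 0.036). The calls of Bcor, Epop and Dcaf7 were each lost without mNanog iPS replicate 1 or 3. They were also lost without replicates 1 or 3 (Bcor), 2 or 3 (Epop) and 1, 2 or 3 (Dcaf7) of hNanog iPS, with adjusted p up to 0.133.

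Genes that PRC2 is known to cover in mouse ES cells did not move one way. Of 32 listed, 18 had no named probe and 11 were tested. In mNanog iPS against NS 6 were higher and 4 lower, in hNanog iPS 3 and 5, and in ES 3 and 5, beside the shares of all probes given above for these comparisons. Of the tested targets 3, 2 and 2 were not detected in NS and passed the filter only through the other group, and 2, 3 and 3 were detected in NS and not in the other group, so the filter set part of these counts. Tbx3, a T-box factor that is also part of the pluripotency network, was undetected in NS and was at least 55.1-, 53.4- and 63.1-fold higher in mNanog iPS, hNanog iPS and ES. Nkx2-2 and Olig2, factors of the oligodendrocyte lineage, were detected on NS arrays only. Nkx2-2 was at least 23.1-, 24.8- and 23.6-fold lower and Olig2 at least 17.7-, 19.0- and 18.0-fold lower. Olig2 is also among the markers used to check the NS cells.

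Cdx2, the trophectoderm factor, was detected in ES only, with 7.58 to 7.93 there, at least 5.95-fold above NS, 4.53-fold above mNanog iPS and 4.87-fold above hNanog iPS. Cdx2 also passed in mNanog iPS against NS and in hNanog iPS against mNanog iPS, where neither group detected it, and no fold is given. Hoxa5, a homeobox gene of the trunk, was undetected in ES and NS and read 6.16 to 6.65 in mNanog iPS and 5.27 to 6.01 in hNanog iPS, with detection on 3 and 2 arrays. It was at least 1.69- and 1.09-fold above ES and at least 2.18- and 1.40-fold above NS. The difference of -0.64 ± 0.17 between the iPS groups (adjusted p = 0.029) was lost without mNanog iPS replicate 1 or 2 or hNanog iPS replicate 3 (adjusted p up to 0.113). Hoxa2 was detected in mNanog iPS only, at 5.35 to 5.87, at least 1.12-fold above hNanog iPS. Cdkn2b, a cyclin-dependent kinase inhibitor, was detected on 2 of 3 arrays in mNanog iPS and on none in hNanog iPS or ES. It was thus at least 1.57- and 1.49-fold higher in mNanog iPS than in these groups. NS also detected it on 2 of 3 arrays, at 5.24 to 5.69, and overlapped mNanog iPS.

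Other inhibitors moved less. Cdkn1c fell by 0.42 ± 0.10 in mNanog iPS against ES (adjusted p = 0.0088) and Cdkn2a by 0.61 ± 0.12 in hNanog iPS against ES (adjusted p = 0.0025). Both calls were lost with median scaling (adjusted p = 0.754 and 0.807). Hoxa5, Hoxa2 and Cdkn2b were highest in mNanog iPS, though Hoxa5 was also detected in hNanog iPS and Cdkn2b in NS. Fibroblast markers were highest in mNanog iPS as well. Of 5 listed 3 were tested, and they summed to 668 to 850 intensity units in mNanog iPS, 70.5 to 84.9 in hNanog iPS, 68.2 to 73.0 in ES and 103 to 117 in NS. Col1a1 and Dcn were below background in hNanog iPS, ES and NS, and Col1a1 read 8.07 to 8.23 in mNanog iPS. Both, like Hoxa2, passed the filter only through mNanog iPS, so the filter set their direction and part of the sum. Thy1 was also detected in NS, at 5.85 to 6.11 against 6.78 to 7.11 in mNanog iPS. Sox9, a neural stem marker, was also detected on all mNanog iPS arrays, at 6.55 to 6.89. It was at least 2.20-fold above ES, where it was undetected, with a fitted difference of 2.11 ± 0.14 (adjusted p = 2.8e-07). The part of these markers in the Hoxa5, Hoxa2 and Cdkn2b values, and in the other differences of mNanog iPS from ES, was not tested.

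The genes whose pattern over the 12 arrays was most like that of each member are given as a description by Pearson's r, for points that share 4 groups. For Cbx7 they were Stmn2, Pou5f1 and Dppa4, each at r = 0.999. For Phc1 they were Lrrc34, Zfhx2 and Ahnak (0.998 to 0.999), for Mtf2 Atmin, Helb and Mvp (0.998), and for Eed Adat1, Hsp90aa1 and Tbc1d10b (0.995 to 0.996). For Suz12 they were Ap1m2, Lima1 and Crxos (0.993 to 0.995), and for Bmi1 Ephx1, H2-Ke6 and Mfap3l (0.993 to 0.994). Cbx2 was most like Shkbp1, Gtf3c2 and Pdpk1 (0.968 to 0.974) and Ezh2 most like Kctd20, Rimkla and Arfip2 (0.937 to 0.949).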

How the data were processed

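Per the labels, total RNA of 12 samples was amplified, labelled with biotin and hybridised to Illumina bead arrays. The authors deposited a mean bead signal as linear intensity for 45281 probes, with no normalization, and a detection p-value per probe; both were used as deposited. A processed table of 20513 probes that the authors deposited is on a log scale and was taken here as log2 because its values rose with log2 signal (slopes 0.762 to 0.894); its base is not stated, and it served as an alternative only. The software behind either table is not stated in the labels.

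Signals were background-corrected with neqc (limma 3.58.1, R 4.3.3; background inferred from detection p-values, offset 16) and quantile normalized. The tested probes, 18185 in all, had 3 or more of the 12 arrays with detection p-values under 0.01. A model of 4 group means was fitted with lmFit and eBayes, and p-values were adjusted by Benjamini-Hochberg per comparison with a threshold of 0.05. Arrays carry no depth, so the number of arrays limits the precision. A probe undetected on all arrays of a group gives a bound ("at least N-fold") against the lowest detected level there. Probe names come from the platform annotation given with the series; for a listed gene outside the 10 members, the probe of highest mean was taken.

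The members, lists and tests were chosen with earlier results of these data known. Named genes were all members, 14 tested genes fixed by name among the other polycomb genes, in each comparison the 2 largest calls in each direction per list, and the 3 genes most like each member; Bcorl1, which gave no value, Pcgf1, Pcgf3 and the cell markers are named besides, chosen after their values were seen. Alternatives covered background, normalization, filter, processed values, variance model, replicate block, array brightness and leaving out each array. They were extended to the named genes of the other lists after the data were seen. The fit was tested on simulated data.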

Additional observations from a re-analysis of the deposited data

How the results depend on the processing

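Counts of calls are given here in the order members, other polycomb genes and targets; the main values are 12, 28 and 10 for mNanog iPS against NS, 12, 24 and 8 for hNanog iPS, 13, 26 and 8 for ES, 3, 13 and 5 for mNanog iPS against ES, 1, 9 and 3 for hNanog iPS against ES, and 3, 5 and 4 for hNanog iPS against mNanog iPS. Counts not printed below stayed within 1.5 times of these. Median scaling put the median over all probes at -0.32, -0.04 and -0.24 against NS. It turned the split of all calls from 7079 higher and 6527 lower to 2769 and 6359 in mNanog iPS against NS, from 7380 and 6315 to 3785 and 5085 in hNanog iPS, from 7382 and 6289 to 2856 and 5932 in ES, from 2899 and 3069 to 605 and 322 in mNanog iPS against ES, and from 2500 and 2252 to 555 and 175 in hNanog iPS against ES. Cyclic loess turned the majority against NS from higher to lower, giving 6275 higher and 7346 lower for mNanog iPS, 6308 higher and 7341 lower for hNanog iPS, and 6129 higher and 7367 lower for ES. It turned the split in mNanog iPS against ES to 3100 and 2239 and that between the iPS groups from 1168 and 1327 to 768 and 1380. Among the lists, median scaling gave 18 other polycomb genes in mNanog iPS against NS, 0, 2 and 3 in mNanog iPS against ES, 0 members and 2 other polycomb genes in hNanog iPS against ES, and 0, 0 and 0 between the iPS groups. Cyclic loess gave 0 members and 5 other polycomb genes in hNanog iPS against ES and 3 other polycomb genes between the iPS groups. Without a filter 1 member was called in mNanog iPS and 0 in hNanog iPS against ES. Requiring 6 arrays left 4 targets called in each comparison with NS and 1 each in mNanog iPS against ES and between the iPS groups. The authors' processed values called 5 members in mNanog iPS against ES. Brighter arrays alone called 7 other polycomb genes in mNanog iPS against ES, and 0 members and 0 other polycomb genes between the iPS groups. Dimmer arrays alone called 5 targets in hNanog iPS against NS, 0 members and 7 other polycomb genes in mNanog iPS against ES, 0, 3 and 1 in hNanog iPS against ES, and 0, 0 and 0 between the iPS groups. These last 2 settings hold 6 arrays each and leave some groups with 1 array, so their counts rest on few arrays. With median scaling, cyclic loess or no filter, some comparisons had 0 member calls by limma. In those, an unadjusted p under 0.05 was reached by 0 to 2, 2 and 5 members in that order. No share of all probes at that unadjusted threshold is given, so these counts have no background to be read against. Fitting both iPS groups alone gave 1 other polycomb gene and 2 targets between them. The cause of the other changes was not tested.

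Leaving out each array in turn gave 1 to 5 members, 10 to 14 other polycomb genes and 5 to 6 targets for mNanog iPS against ES, 0 to 2, 5 to 9 and 3 to 4 for hNanog iPS against ES, and 0 to 3, 1 to 5 and 2 to 4 between the iPS groups. Against NS it gave 12 to 14 members over the 3 comparisons. Replicate numbers did not pair the samples: residuals of same-numbered arrays correlated at -0.507 to 0.374 over 18 pairs, and 3 of 12 arrays correlated best with their own number. With the replicate block the members called were 12, 12, 14, 2, 1 and 2 in the 6 comparisons, and the other polycomb genes between the iPS groups were 2. Of 2178 member differences recomputed, 75 lost a call, 33 gained one, 57 that were not called changed sign and 1 called difference reversed: Ezh2 ILMN_2988572 in ES against NS, at -0.10 with median scaling (adjusted p = 0.814). Among the named other genes, Kdm2b in ES against NS reversed to -0.04 with median scaling (adjusted p = 0.927), and Asxl3 in hNanog iPS against NS, 0.52 in the fit to all arrays, to -0.115 among dimmer arrays alone (adjusted p = 0.696).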
